A study of Homo sapiens with 2 samples.

Results

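Chromosome 17 carried 6975 of the 105637 peak summits in a chromatin immunoprecipitation sequencing list for Myocardin, or 6.60% of the list. Every summit on this chromosome was taken, whatever its score, and assigned to a bin of 1 Mb by its position in the human assembly GRCh37. A bin is called here by its megabase, so that the 7 Mb bin runs from 7000001 to 8000000. The chromosome, and the bins described in most detail, were chosen by their peak counts and peak scores in this same list. Counts and scores are therefore given as a description, without a test, and no inference beyond this list is drawn from them. The interval beside a share is an exact 95% Clopper-Pearson interval and covers counting error alone.

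The cells were A549, a human lung cancer line, with MYOCD stably overexpressed from the vector pWPI. Both groups share this overexpression: 1 library was precipitated with anti-Myocardin and 1 with IgG, from the same stable line. No uninfected or empty-vector line enters the list. The list ties no peak and no score to either antibody, the sequencing depth is unknown, and there is no replicate.

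Myocardin is a transcriptional coactivator that does not bind DNA by itself in the usual case. It is carried to smooth and cardiac muscle genes by serum response factor, which recognises the CArG box. Chromosome 17 is a gene-rich chromosome. It holds MYOCD itself on the short arm, and the HOXB genes, the type I keratins, the keratin-associated proteins and a tandem array of U2 small nuclear RNA genes on the long arm. The genes named below are background. Their megabase is given from general knowledge of GRCh37, and their order along the chromosome was checked in a RefSeq table of GRCh38.p14, where all 19 genes looked up lay on chromosome 17 in that order. No annotation or sequence of GRCh37 was used here, so no summit is assigned to a gene and no sequence is shown.

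Peaks were spread over nearly the whole of chromosome 17 and were crowded along most of it. Of its 82 bins, 80 held at least 1 peak. The 2 without a peak, at 23 and 24 Mb, lay inside a peak-free stretch of 3003 kb between positions 22260600 and 25263852, which separates the arms. An occupied bin held between 12 and 148 peaks, the median bin 94, and the quartiles were 66.25 and 113.25. A count of at least 100 was reached by 35 of the 80 bins (43.8%), against a background of 4.83% over the 2732 occupied autosomal bins. These 35 bins held 4142 peaks, or 59.4% of the chromosome's total. Only 16 bins held fewer than 50. The 16 include the 22 Mb bin, with 18 peaks, which runs into the peak-free stretch. They also include the 81 Mb bin, with 22, which the assembly covers only in part. Both are kept where bins are grouped by count below.

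The other crowded chromosomes had fewer such bins. Chromosome 19 reached 100 peaks in 19 of 58 occupied bins, with a median of 76.5 per bin. Chromosome 16 did so in 13 of 81 with a median of 50, and chromosome 20 in 5 of 61 with a median of 64. Their fullest bins held 141, 128 and 107 peaks. The fullest bins of chromosomes 17 and 19 were thus close in count, while the middle of the range lay higher on chromosome 17. No test was made of these differences.

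**Figure D1:**
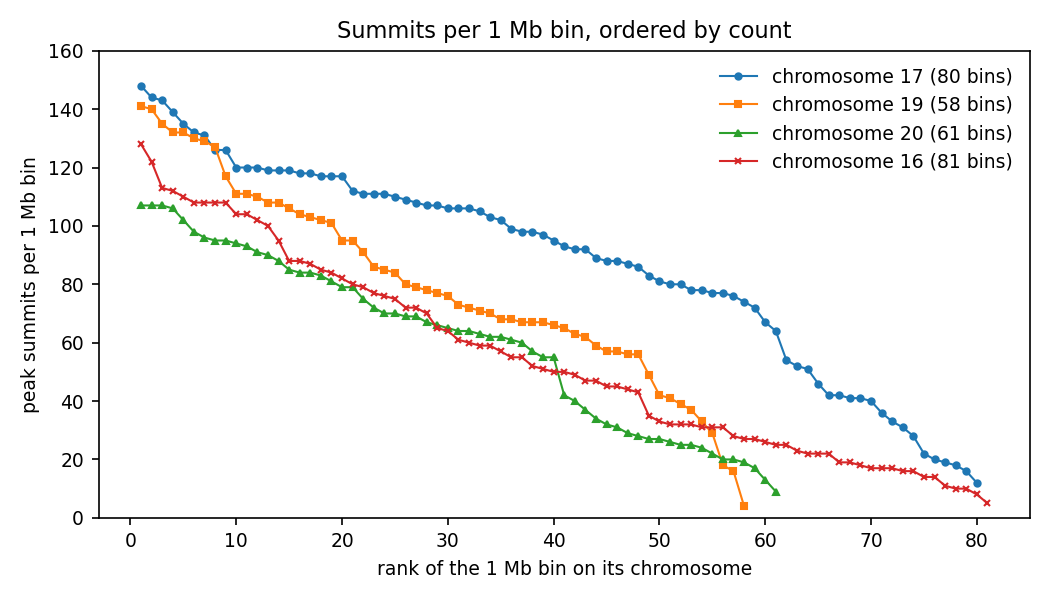
Number of peak summits in each occupied 1 Mb bin (vertical axis) against the rank of that bin on its chromosome (horizontal axis), for chromosomes 17, 19, 20 and 16. Each point is 1 bin. Chromosome 17 starts at 148 and still has 100 or more summits at rank 35, where chromosomes 19, 20 and 16 lie below 100.

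Scores on chromosome 17 were close to those of the list, and 1 bin held many of its scores of at least 30. The peak score was set by the authors' peak caller, has no stated unit and serves here only to rank peaks within the list. The median was 8.67 on chromosome 17 and 8.50 in the whole list, and the chromosome's range was 2.59 to 185. A score of at least 12.2, the upper quartile of the list, was reached by 1813 peaks, or 26.0% (interval 24.97% to 27.0%), against a background of 26.3%, which is above 25% because scores are tied at that value. A score of at least 30 was reached by 91 peaks, or 1.30% (1.05% to 1.60%), against 0.974%. Of these 91, 17 lay in the single bin at 39 Mb. Without that bin 74 of 6855 peaks reached 30, or 1.08% (0.849% to 1.35%). The bin was left out after its scores were seen, while the background keeps it and the like bins of other chromosomes. The lower share therefore follows in part from the choice. A score of at least 50 was reached by 7 peaks (0.100%, interval 0.0404% to 0.207%), against 0.158%, and 4 of these were at least 100, against 0.0331% of the list.

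The short arm carried 94.5 peaks per Mb over 22.3 Mb and the long arm 87.2 over 55.9 Mb, a ratio of 1.08 (interval 1.03 to 1.14). That interval covers counting error alone and takes summits as independent. Occupied bins ranged from 12 to 148 peaks, so it does not show that the arms differ. Their scores differed little, with medians of 8.57 and 8.73 and with 25.4% (23.5% to 27.3%) and 26.3% (25.02% to 27.5%) of peaks in the upper quartile. The long arm held 69.8% of all peaks of the chromosome, 6 of the 7 of at least 50 and 70 of the 91 of at least 30 (76.9%). Without the 39 Mb bin it held 53 of 74 of the last (71.6%), close to its share of all peaks.

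Along the chromosome the bins fell into long crowded blocks parted by short sparse ones. Counts of neighbouring bins went together, with a Spearman correlation of 0.70 over 77 of the pairs of adjacent bins, not all of them, each bin entering up to 2 pairs. From the tip of the short arm through the 9 Mb bin, 10 bins held 87 to 144 peaks each, 111.7 per Mb, with a median score of 8.23. The 5 bins from 10 to 14 Mb then held only 31 to 54 each, 45 per Mb, with a median of 9.22. The 7 bins from 15 to 21 Mb were crowded again, at 92 to 117 each and 106 per Mb.

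The long arm began with 64 to 117 peaks per bin from 25 to 30 Mb and dropped to 41 to 78 from 31 to 33 Mb. The longest crowded block lay from 34 to 48 Mb, where 15 bins held 1654 peaks at 110 per Mb, or 23.7% of the chromosome. It held 34 of the 91 peaks of at least 30 (37.4%), but without the 39 Mb bin 17 of 74 (22.97%), which is about its share of all peaks. The 6 bins from 49 to 54 Mb were sparse, with 12 to 41 peaks each and 27.5 per Mb. From 55 to 66 Mb the count rose to 51 to 97 per bin, from 67 to 69 Mb it was 19 to 33, and from 70 to 80 Mb it reached 83 to 148, or 120 per Mb. The last bin, at 81 Mb, is only partly covered by the assembly and held 22 peaks.

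Within 2 of the sparse blocks, the RefSeq table was read for the genes between a pair of neighbours. Gene density was not compared between sparse and crowded blocks. SOX9, a transcription factor of cartilage and testis development, lies in the 70 Mb bin and KCNJ2, a potassium channel gene, in the 68 Mb bin. The table lists 0 protein-coding genes between them. The 69 Mb bin held 19 peaks with a highest score of 20.2, and one stretch of 273 kb in it, from 69419021 to 69692451, had none. The 68 Mb bin held 28 peaks, and 85.7% of them carried 1 of the 19 score values that recur at least 150 times in the list. The share was 57.6% in the 67 Mb bin and 57.9% in the 69 Mb bin. It was 39.01% over all bins of the chromosome with fewer than 50 peaks, against a background of 29.4%. Between CA10 and TOM1L1 the table lists 1 protein-coding gene, KIF2B, a kinesin gene placed in the 51 Mb bin. The 50, 51 and 52 Mb bins held 16, 20 and 12 peaks, the 52 Mb bin being the emptiest of the occupied bins, with a stretch of 287 kb without a summit from 52179869 to 52467067. The second longest peak-free stretch of the chromosome, 333 kb, also lay here, from 50999674 to 51332207.

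Most sparse bins had somewhat higher scores than crowded ones, although the 69 Mb bin had a median of 8.28. In the 6 bins from 49 to 54 Mb the median score was 10.9 and 66 of 165 peaks (40.0%, interval 32.5% to 47.9%) lay in the upper quartile, against 17.7% (15.7% to 19.9%) of the 1325 peaks from 70 to 80 Mb, where the median was 7.71. The background is 26.3%. Over the 76 bins with at least 20 peaks, the Spearman correlation of count and median score was -0.54. On chromosomes 16 and 20 the same measure was -0.46 over 66 bins and -0.49 over 57, and on chromosome 19 it was 0.06 over 55. These are descriptions: bins of a chromosome come from the same list, the same unstated depth and the same peak caller. The highest median among these 76 bins was 11.7, in the 53 Mb bin with 36 peaks, and the lowest was 6.10, in the 79 Mb bin with 117 peaks, which holds ACTG1, a cytoplasmic actin gene.

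**Figure D2:**
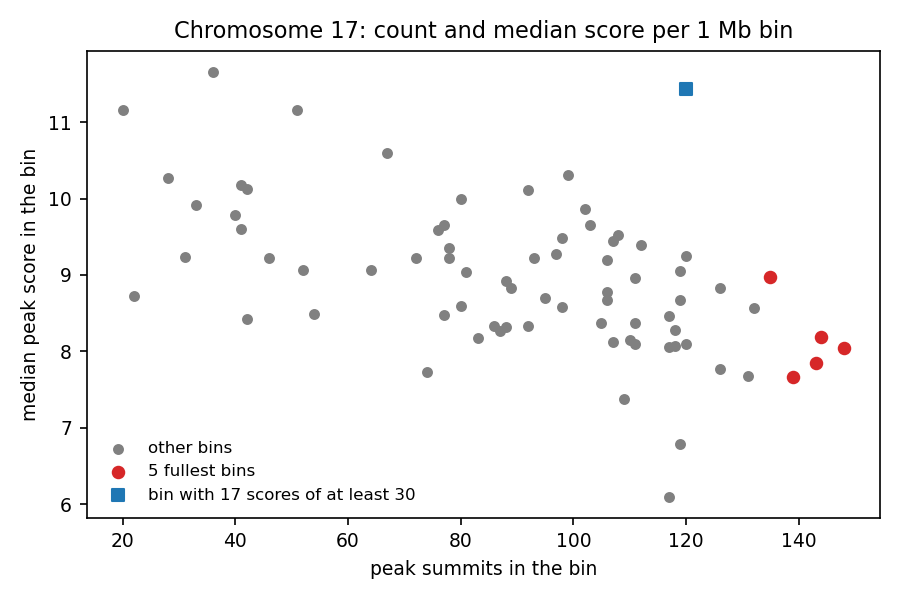
Median peak score (vertical axis) against the number of peak summits (horizontal axis) for the 76 bins of chromosome 17 with at least 20 summits, 1 point per bin. The 5 fullest bins (red) have medians between 7.67 and 8.97, while the 39 Mb bin (blue square) combines 120 summits with a median of 11.4.

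The recurring score values made up a smaller share of peaks on chromosome 17 than in the list, and their share was higher in sparse bins. They were carried by 717 of its peaks, or 10.3% (interval 9.58% to 11.0%), against a background of 29.4%. The values were 8.07% on chromosome 19, 15.9% on chromosome 16 and 18.8% on chromosome 20. Within chromosome 17 the share was 39.01% (190 peaks) in the 16 bins with fewer than 50 peaks, 13.6% (320) in the 29 bins with 50 to 99 and 4.998% (207) in the 35 bins with at least 100. The correlation of count and this share over the 76 bins was -0.80 (Spearman).

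The 5 fullest bins were those at 78, 7, 1, 80 and 48 Mb, and together they held 709 peaks, or 10.2% of the chromosome. High scores were less frequent in them taken as a whole. Only 134 of the 709 lay in the upper quartile (18.9%, interval 16.1% to 22.0%), against 26.8% (25.7% to 27.9%) in the other 75 bins and a background of 26.3%. Just 2 of the 709 reached a score of 30 (0.282%), against a background of 0.974%. In the other 75 bins the share was 1.42%, with the 17 such peaks of the 39 Mb bin included. The next bins in order of count were those at 40 and 73 Mb, with 132 and 131 peaks, so the 5 do not stand apart from the rest by a gap.

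The 78 Mb bin was the fullest, with 148 peaks. It holds RPTOR, which encodes a subunit of the growth-regulating kinase complex mTORC1. Its highest score was 19.9, at position 78722739, the lowest maximum among the 5, and 25 of its peaks lay in the upper quartile. Its median score was 8.05. The peaks were spread along the bin, with 11 to 21 in each of its 10 windows of 100 kb and no stretch longer than 32.2 kb without a summit.

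The 7 Mb bin held 144 peaks with a median score of 8.19. POLR2A, which encodes the largest subunit of RNA polymerase II, lies in this bin. The highest score was 25.3, at position 7826404, and 30 peaks lay in the upper quartile. Windows of 100 kb held 9 to 21 peaks, the most from 7300001 to 7400000, where the median score was 7.06. No stretch without a summit was longer than 22.9 kb, the shortest such maximum among the 5 bins.

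The 1 Mb bin held 143 peaks with a median of 7.84, and its share of high scores was low, with 20 peaks in the upper quartile. It holds YWHAE, a 14-3-3 adaptor protein gene, and HIC1, a transcriptional repressor gene. The strongest summit scored 33.3, at position 1419667. Of its 143 peaks, 55 had another summit within 1.5 kb, the highest number in any of the 5 bins.

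The 80 Mb bin held 139 peaks and a median of 7.67, and includes FASN, the fatty acid synthase gene, and FOXK2, a forkhead transcription factor gene. Of its peaks, 30 lay in the upper quartile, which at 21.6% was the highest share among the 5 bins, though below the background of 26.3%. The summit at position 80544279 scored 121, which was rank 4 on the chromosome and rank 26 in the list, and no other peak of the bin reached 30. The nearest other summit lay 7.54 kb away. The window from 80800001 to 80900000 held 22 peaks with a median score of 6.67.

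The 48 Mb bin held 135 peaks. It includes COL1A1, a chain of the fibrillar type I collagen, ITGA3, an integrin subunit gene, and CACNA1G, a calcium channel gene. Its median score of 8.97 was the highest among the 5 bins and the only one above the chromosome's median of 8.67, and 29 peaks lay in the upper quartile. The strongest summit scored 24.6, at position 48298339. Counts per 100 kb were the most uneven here together with the 80 Mb bin, from 7 between 48300001 and 48400000 to 21 between 48600001 and 48700000.

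The 77 to 80 Mb bins of the long arm as a block had a high count and low scores. The bins from 77 to 80 Mb held 523 peaks, 131 per Mb, with a median score of 7.08, and 74 (14.1%, interval 11.3% to 17.4%) lay in the upper quartile. The 77 Mb bin, which holds CBX2, a Polycomb subunit gene, had 119 peaks and 11 in the upper quartile, and the 79 Mb bin had 117 and 8. The share was higher in the 78 Mb bin, at 16.9%, and in the 80 Mb bin, at 21.6%. The partly covered 81 Mb bin at the tip differed, with a median of 8.72, 6 of 22 peaks in the upper quartile and a highest score of 44.9.

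Closely spaced summits were more common in the fullest bins. Another summit lay within 1.5 kb of 1564 chromosome 17 peaks, or 22.4% (interval 21.4% to 23.4%), against a background of 18%, and within 10 kb of 84.2% (83.3% to 85.0%), against 64.1%. The shares within 1.5 kb were 22.5% on chromosome 19, 20.4% on chromosome 20 and 19.1% on chromosome 16. Those within 10 kb were 81.01%, 73.6% and 73.4% in the same order. Spacing within 1.5 kb was thus not particular to chromosome 17. In the 5 fullest bins 31.5% of peaks had a neighbour within 1.5 kb, against 21.4% in the other bins and 12.9% in bins with fewer than 50 peaks. Counts and spacing are read from the same summits, so the 2 are not independent. The median distance between adjacent summits was 7.56 kb on the chromosome and 5.92 kb in the 5 bins. With summits closer than 1.5 kb counted once, the 5 bins held 592 and remained the 5 fullest. Counted over the upper quartile of scores alone, 0 of them were among the 5 fullest.

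**Figure D3:**
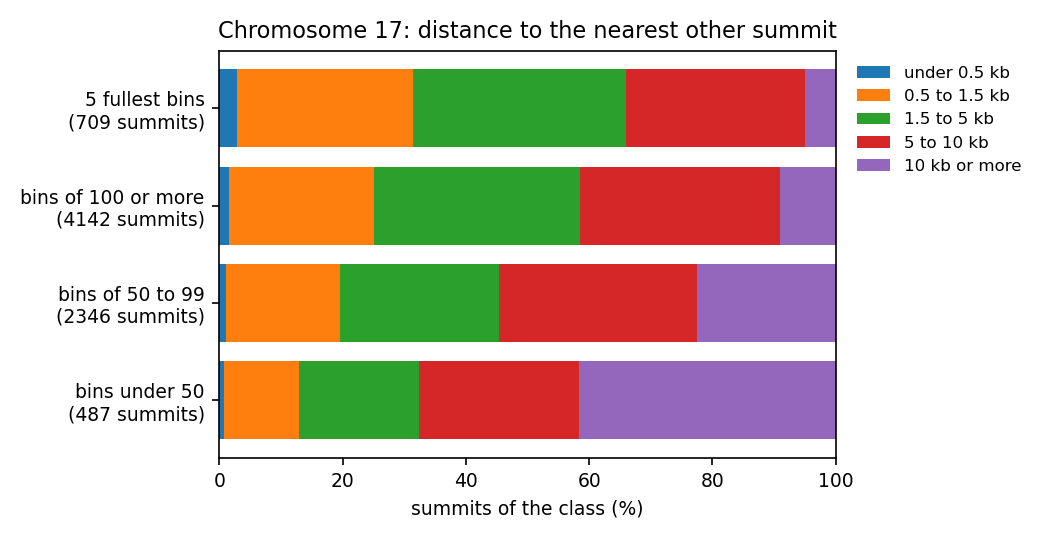
Share of summits (horizontal axis, percent of each class) by distance to the nearest other summit (colours), for chromosome 17 bins with fewer than 50, 50 to 99 and 100 or more peaks and for the 5 fullest bins, which also belong to the 100-or-more class. Distances of 10 kb or more make up 41.7% of summits in the sparsest class and 4.94% in the 5 fullest bins.

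Peaks with a close neighbour scored lower than isolated ones. On chromosome 17 the 98 peaks with another summit under 0.5 kb away had a median score of 6.73, and none reached 30. The 227 peaks whose nearest summit was 20 kb or more away had a median of 10.2, and 41.4% of them lay in the upper quartile. In between, the order was not smooth. Peaks with a neighbour at 0.5 to 1.5 kb had a median of 8.28, those at 1.5 to 5 kb had 8.15, and those at 5 to 10 kb had 9.22. The last class was the largest, with 31.9% of all peaks, and held 47 of the 91 of at least 30 (51.6%), 11 of them in the 39 Mb bin. Without that bin it held 36 of 74 (48.6%). Over all autosomes the class at 5 to 10 kb was 26.5% of peaks and held 313 of those of at least 30. The autosomal counts of such scores in the other classes, from nearest to farthest, were 3, 72, 126, 260 and 228. Over all autosomes the medians of the same classes ran from 6.496 under 0.5 kb to 9.99 at 20 kb or more.

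The 3 highest scores of chromosome 17 stood together in the 41 Mb bin. The summits lay at positions 41382216, 41399950 and 41466196 and scored 177, 155 and 185. They hold ranks 1 to 3 on the chromosome and ranks 12, 15 and 10 in the list. The first pair is 17.7 kb apart, the second 66.2 kb, and the whole group spans 84.0 kb. Among the 35 peaks of at least 100 in the whole list, no other 3 lay within 100 kb of each other. A value of at least 100 is rare, with a background of 0.0331%, but these peaks were picked for their scores.

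None of the summits around these 3 came near their scores. The window from 41300001 to 41500000 held 17 peaks, or 85 per Mb, which is below the bin's own count of 111. The other 14 scored 4.60 to 22.5 with a median of 12.02, and none of them reached 30. Of the 14, 6 lay in the upper quartile, where the background is 26.3%, and 14 peaks are too few to read a difference from it. The summit that scored 22.5 was also the nearest to the strongest one, at position 41463792 and 2.40 kb away. Between the second and the third of the strong summits lay a stretch of 40.8 kb without any peak, from 41399950 to 41440791, the longest of the 41 Mb bin. The nearest summits outside the window scored 8.44, at 41299435, and 7.68, at 41518441. The bin's median score was 8.96 with the 3 and 8.85 without them. Elsewhere in the bin the highest score was 34.7, at position 41867934.

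NBR1, an autophagy receptor gene, lies in the same bin. In the RefSeq table the order after NBR1 is TMEM106A, CCDC200, then 14 small nuclear RNA genes that begin with RNU2-1, then LINC00910, with 0 protein-coding genes between CCDC200 and LINC00910. RNU2-1 encodes U2, the spliceosomal RNA that pairs with the branch point of introns, and its copies form a tandem array in which near-identical units are repeated. Whether the 3 summits lie at this array was not tested, since the table is of another build. The list gives no IgG value for them, so anti-Myocardin and IgG signal cannot be told apart there.

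**Figure D4:**
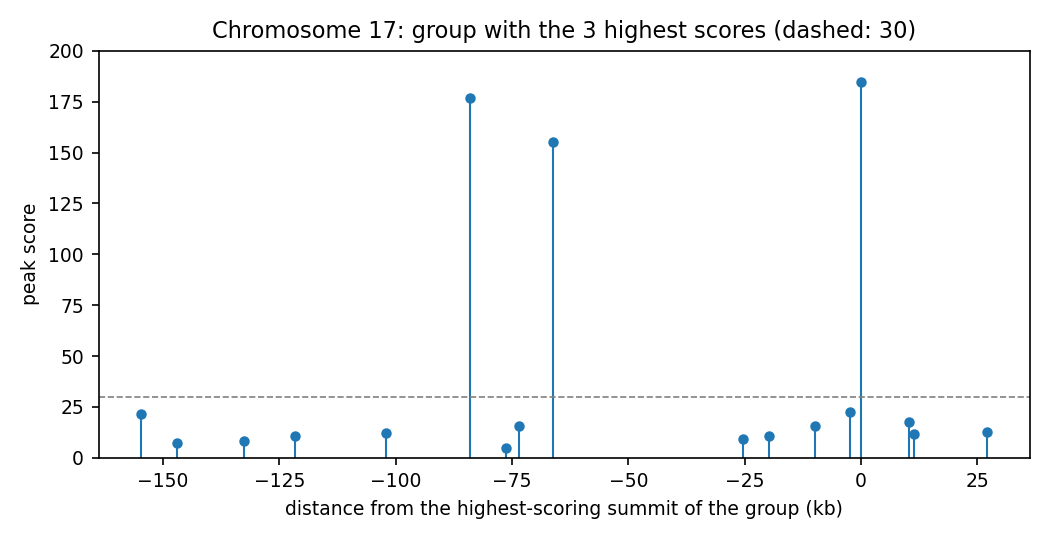
Peak score (vertical axis) of each of the 17 summits between positions 41300001 and 41500000 against its distance in kb from the strongest (horizontal axis), with a dashed line at a score of 30. The 3 strong summits score 155 to 185, while the other 14 stay at or under 22.5.

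A second group of high scores lay in the 39 Mb bin and had another form, with many summits of moderate height in place of 3 very high ones. Of the 120 peaks in this bin, 17 scored at least 30, or 18.7% of all such peaks on the chromosome, and the next bins of chromosome 17 had 4. No autosomal bin of the list had more than 17. The 17 scored 30.9 to 49.7 and stood between positions 39190782 and 39411900, a span of 221 kb. The strongest, at 39316649, held rank 8 on the chromosome and rank 168 in the list. This group was singled out after its scores were seen.

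Within these 221 kb there were 30 summits, with a median score of 32.0. The 13 summits of the span that fell short of 30 included 3 close to it, at 39240674, 39383061 and 39406202, with scores of 28.6, 28.9 and 29.4. Only 3 of the 30 lay below the upper quartile of the list, with scores of 8.39, 5.35 and 4.04 and the nearest other summit at 3.45, 3.51 and 1.98 kb. The median distance between adjacent summits was 6.496 kb, 21 of the 29 distances were between 4 and 12 kb, and the longest was 16.6 kb. The 90 peaks of the same bin outside the span had a median score of 9.76 and a highest score of 25.9, and 29 of them lay in the upper quartile. Because the span was drawn from the first to the last score of at least 30, no score outside it could reach 30. The contrast of inside and outside thus follows in part from the definition.

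The keratin-associated protein genes, which encode matrix proteins of the hair shaft, lie in the 39 Mb bin, as does KRT14, a keratin of the basal epidermis. The RefSeq table lists 34 protein-coding keratin-associated protein genes and 6 pseudogenes of the family between KRT40 and KRT33A, with 0 other protein-coding genes among them. Of the 34, 12 belong to the KRTAP4 subfamily, whose members are close copies of each other. Which of the 30 summits lie in or beside these genes was not tested, and the similarity of the copies was not measured here.

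**Figure D5:**
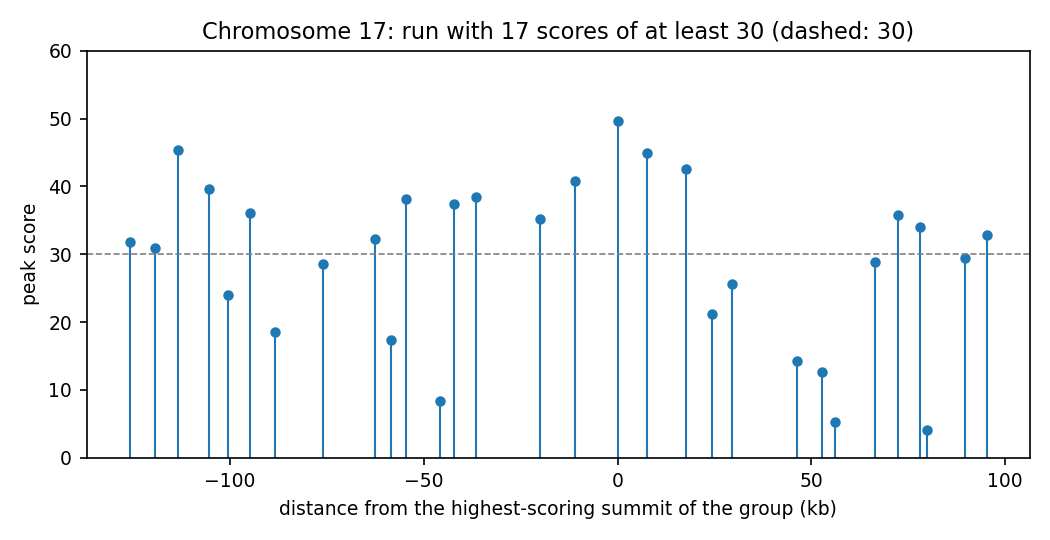
Peak score (vertical axis) of each of the 30 summits between the first and last summit of at least 30 in the 39 Mb bin, against the distance in kb from the strongest (horizontal axis), with a dashed line at 30. High scores recur along the whole 221 kb, with a lower stretch to the right of the centre.

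The other high scores of the chromosome were scattered. The summit at rank 5, at position 76111881, scored 68.3, the one at rank 6, at 51552 near the tip of the short arm, scored 54.3, and the one at rank 7, at 42645787, scored 53.8. Of the 20 highest scores, 4 lay in the 0 Mb bin, at 51552, 206075, 475512 and 744687, with the last 3 scoring 45.3, 42.0 and 42.7. Another 2, at 21561569 and 21906268, scored 45.7 and 47.1 and lay in the 21 Mb bin, the next to last before the peak-free stretch between the arms. The 81 Mb bin, at the tip of the long arm, held 1, at 81082006 with 44.9. Those left were 5 in the 39 Mb group, at 49.7, 45.3, 44.9, 42.6 and 40.9, 1 at 47203192 with 48.1 and 1 at 33734728 with 42.7. The 80 Mb summit and the 3 at 41 Mb complete the 20. Of the 80 occupied bins 30 had no score of 30 or more. The same share was not counted over all autosomal bins, so this number cannot be read as particular to chromosome 17.

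Small windows ranked differently from whole megabases. At 100 kb, 15 of the 769 occupied windows of chromosome 17 held at least 20 peaks (1.95%), against a background of 0.155% over the 23200 occupied autosomal windows, and 36 such windows were found in all. The fullest on chromosome 17 ran from 46600001 to 46700000, with 25 peaks, a median score of 10.2 and a highest score of 18.7. The HOXB genes, homeobox factors of the body axis, lie in this 46 Mb bin, which held 99 peaks in all and a median of 10.3. The next window, from 73700001 to 73800000, held 24 peaks with a median of 6.77. The window of most peaks in the genome's autosomes held 28.

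MYOCD lies in the 12 Mb bin, within the sparse block of the short arm. The bin held 54 peaks with a median score of 8.49, and its strongest summit scored 39.5, at position 12569041, rank 25 on the chromosome and rank 340 in the list, at the edge of a stretch of 71.8 kb without a summit. No other peak of this bin reached 30. The 38 Mb bin, next to the keratin genes at 39 Mb, held 106 peaks and no score above 29.4.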

How the data were processed

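The data are 1 peak list for the whole series, from 1 library precipitated with anti-Myocardin and 1 with IgG, per the labels. Each row is a summit 1 bp wide with a peak score, which the authors deposited without a unit, per the file headers. Start and end positions are other values of that deposited table. The list's name refers to MACS. The submitters' processing notes list CASAVA 1.4. For the caller's version, its threshold, the aligner and any use of IgG, nothing is stated. The notes name mm9 and GRCh38.p12, but 13627 and 1093 summits lie past chromosome ends there (hg18: 1667), against 0 on GRCh37, whose lengths came from the R package GenomeInfoDb. Columns of per-sample values left out: 0.

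The members, bins, segments and thresholds were chosen with earlier results of these data known. Named peaks were the 20 highest scores of chromosome 17, the summits of at least 30 between 41300001 and 41500000 and the strongest of each bin named by the rule. Blocks of bins, the 39 Mb group and 100 kb windows were added after values were seen. Covered sequence is the span of summits minus stretches of at least 1 Mb without one. Binning was tested on simulated positions. Python 3.11.15, pandas 2.3.3, NumPy 2.4.6, SciPy 1.17.1 and matplotlib 3.10.9 were used.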

Additional observations from a re-analysis of the deposited data

How the results depend on the processing

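Of 20 alternatives over 10 results, 15 were classed as unchanged and 5 as moved, and none reversed a direction. Unchanged meant within the interval for a share or density ratio and within 1.5 times for a count. For the correlation and the 41 Mb median score no interval is given, so their class rests on no stated limit. Results on the strong 41 Mb group and the 5 fullest bins concern members picked for those values, so little change there was largely fixed by the choice. The density of chromosome 17 over that of the autosomes together was 2.35 (interval 2.30 to 2.40, for counting error alone). The same ratio was 2.19 for chromosome 19, 1.64 for chromosome 20 and 1.47 for chromosome 16. For chromosome 17 it was 2.42 with whole chromosome lengths, 2.29 with summits closer than 1.5 kb merged and 2.32 over the upper quartile of scores. The share of its peaks in the upper quartile, 26.0%, became 10.3% when the top 10% of scores was used, by construction. Counted over the upper quartile alone, 0 of the 5 fullest bins were among the 5 fullest; 13.99% to 21.6% of the peaks of each lay in that quartile, against 26.8% in the other bins. The median distance between summits was then 27.9 kb in place of 7.56 kb, with fewer peaks entering. The correlation of count and median score ran from -0.64 with 2 Mb bins to -0.40 with 0.5 Mb bins. Omission of the 3 strongest summits at 41 Mb and of the 39 Mb bin were chosen after seeing the data. No paired analysis was possible because there is 1 library per antibody and the list has no column for either, so no replicate could be left out. With no read counts in the list, what depth limits is unknown.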
